A study of Mus musculus with 9 samples.

Results

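Blood vessels in the developing and the adult mouse pituitary were examined through 10 marker genes of endothelial cells, the cells that line the vessels. The members, *Pecam1*, *Cdh5*, *Kdr*, *Flt1*, *Tek*, *Tie1*, *Emcn*, *Plvap*, *Cldn5* and *Sox17*, were listed by name, and each was found among the 55450 genes of the count files and among the 19371 genes abundant enough to test. RNA sequencing covered 9 libraries, of which 7 came from Rathke's pouch, the embryonic origin of the gland, of *Sox2-Egfp/+* embryos at embryonic day 13.5, and 2 came from pituitaries of adult mice at postnatal week 8 after removal of the posterior lobe. All mice were on a mixed 129Sv/c57BL6J background, the adults were a male and a female, the embryos included both sexes, the sex of each library was not given, and the labels gave no allele for the adults. Each library was made from 50 ng of RNA by directional poly(A) sequencing with 75 bp read pairs. Stage and dissected tissue changed together between the groups, and genotype may have changed with them, so their parts in a difference cannot be told apart. Counted read pairs ran from 16738863 to 28537311 in the embryos, and were 36421545 in adult 1 and 31191117 in adult 2. At this depth 3 counts came to at most 0.220 CPM (the read count normalised to library size) in an embryo and 0.0843 CPM in an adult, which covers counting error only. The lowest count of any member in any library was 11.

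Endothelial cells hold together through the cadherin encoded by *Cdh5* and the adhesion molecule encoded by *Pecam1*, and vessel growth and stability run through the VEGF receptors *Kdr* and *Flt1* and the angiopoietin receptor *Tek* with its partner *Tie1*. Endothelium differs between organs. Brain capillaries are sealed by tight junctions that contain claudin-5, the product of *Cldn5*, whereas the sinusoidal capillaries of the anterior pituitary are fenestrated, and *Plvap* encodes the protein of the diaphragms that span such openings.

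Embryos 1, 2 and 4 stood apart from the other embryos. In embryos 1 and 4, genes received 59.7% and 62.8% of read pairs, where the other embryos had 73.9% to 80.0%. Their summed level of 8 erythroid genes was 178374 and 223596 CPM, and 6372 to 19819 CPM in the others. Embryo 2 held the highest CPM of 7 of the 10 members, and it was also the highest embryo in the summed levels of mural, macrophage and neural marker genes. The libraries were made from whole tissue, so fewer endothelial cells and less RNA per endothelial cell cannot be told apart.

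Several of the endothelial genes were higher in Rathke's pouch than in the adult gland. A gene was called when its adjusted p in edgeR's quasi-likelihood test was under 0.05 and its fold change was above 4. *Emcn*, *Cldn5* and *Sox17* were called higher in embryo, which was 3 of 10 members against 11.3% of all tested genes. At the adjusted p alone *Pecam1*, *Cdh5* and *Tie1* joined them, which made 6 of 10 against 24.0%. This count was 5 without adult 1 and 3 without adult 2. In the same 6 members all 7 embryos lay above both adults, as in 26.2% of all tested genes. No member was called higher in adult by edgeR, where 14.6% of tested genes were, and none passed the adjusted p alone in that direction, where 27.4% did. The count of members higher in adult was also 0 at an unadjusted p under 0.05, and 0 with DESeq2. In no member did all 7 embryos lie below both adults, against 32.9% of all tested genes. The median log2 fold change of embryo over adult was 1.72 over the members and -0.04 over all tested genes. Fold changes over all tested genes ran with transcript length (Spearman correlation across genes -0.388, and genes are not independent replicates). After a correction for length and GC content the medians were 1.86 and 0.05, 8 members passed the adjusted p higher in embryo, and *Plvap* passed it higher in adult. The shares above belong to the fit without the correction. With it 1658 of all tested genes were called higher in embryo and 2353 higher in adult, against 2182 and 2819 without it. Without embryos 1, 2 and 4 the same 3 members were called, at log2 fold changes of 2.17 for *Emcn*, 3.47 for *Cldn5* and 3.57 for *Sox17*, and 6 passed the adjusted p.

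**Figure D1:**
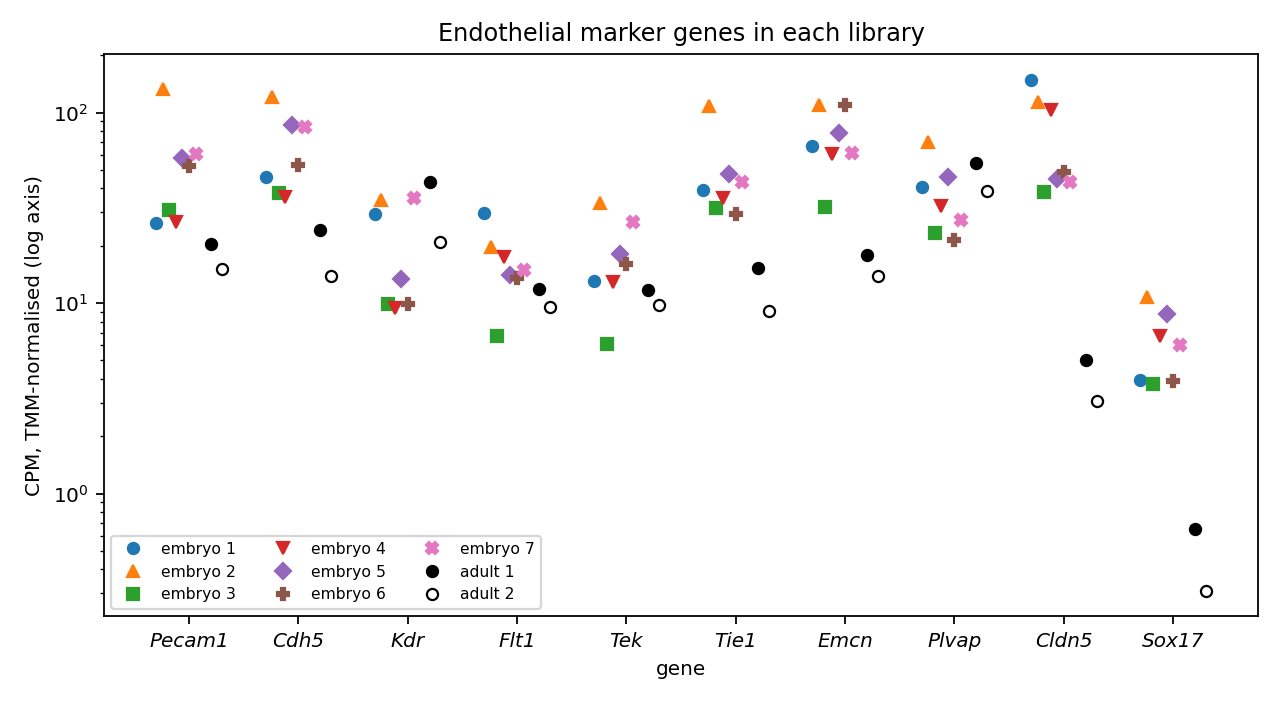
Normalised level of each endothelial gene in every library, in CPM on a log scale, with embryos and adults as separate points. All 7 embryos lie above both adults for *Pecam1*, *Cdh5*, *Tie1*, *Emcn*, *Cldn5* and *Sox17*, and the groups overlap for the other members.

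**Figure D2:**
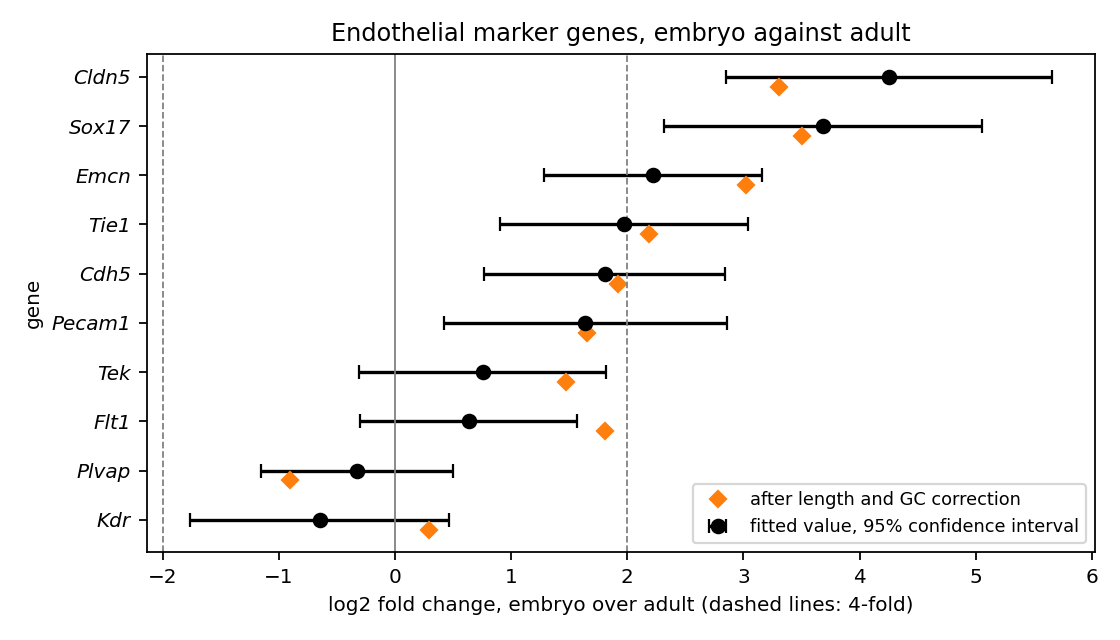
Log2 fold change of embryo over adult for each member with its 95% confidence interval from edgeR as black points and bars, and the value after the length and GC correction as orange diamonds. The black points run from -0.65 for *Kdr* to 4.25 for *Cldn5*.

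The gene with the largest difference was *Cldn5* (ENSMUSG00000041378, chr16:18776847-18778262, plus strand, GRCm38), which encodes the main claudin of endothelial tight junctions. Its level ran from 38.4 CPM in embryo 3 over a median of 48.7 CPM to 149 CPM in embryo 1, and it was 5.02 and 3.06 CPM in the adults. Embryos 1, 2 and 4 were the high ones, at 103 CPM and above, and the groups did not overlap. The log2 fold change was 4.25 (95% confidence interval 2.85 to 5.65, edgeR adjusted p = 0.00014), a 19.1-fold difference. It lay between 3.30 and 5.05 over all settings tried, and the call held in each of them.

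*Cdh5* (ENSMUSG00000031871, chr8:104101625-104144511, plus strand), the cadherin of endothelial adherens junctions, ran from 36.2 CPM in embryo 4 over a median of 53.0 CPM to 121 CPM in embryo 2, against 24.1 and 13.8 CPM in the adults. Every embryo lay above both adults. Its log2 fold change was 1.80 (95% confidence interval 0.77 to 2.84, edgeR adjusted p = 0.00668), and without adult 2 it was 1.45 with an adjusted p of 0.101. Without adult 1 *Cdh5* was called, at a log2 fold change of 2.24.

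*Pecam1* (ENSMUSG00000020717, chr11:106654217-106750628, minus strand), an adhesion molecule of endothelial contacts that blood cells carry as well, ran from 26.4 CPM in embryo 1 over a median of 52.7 CPM to 133 CPM in embryo 2. The adults had 20.5 and 15.1 CPM, below every embryo. Embryo over adult gave a log2 fold change of 1.64 (95% confidence interval 0.42 to 2.85, edgeR adjusted p = 0.0263). The adjusted p was 0.0898 without adult 1, 0.175 without adult 2 and 0.0735 with scaling by library size alone.

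*Emcn* (ENSMUSG00000054690, chr3:137341067-137432185, plus strand), a sialomucin found mostly on venous and capillary endothelium, ran from 31.8 CPM in embryo 3 over a median of 66.8 CPM to 110 CPM in embryo 2, and adults 1 and 2 had 17.9 and 13.9 CPM. Embryo 6, at 109 CPM, nearly equalled embryo 2, and no embryo came down to the adult range. With a log2 fold change of 2.22 (95% confidence interval 1.28 to 3.16, edgeR adjusted p = 0.000878), the difference was 4.66-fold. A test against a fold of 4 gave an adjusted p of 0.519.

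*Sox17* (ENSMUSG00000025902, chr1:4490931-4497354, minus strand), a transcription factor gene of arterial endothelium, was the least abundant member. It ran from 3.78 CPM in embryo 3 over a median of 6.03 CPM to 10.7 CPM in embryo 2, and the adult levels of 0.654 and 0.309 CPM rested on 27 and 11 counts. The groups did not overlap, and embryos 2 and 5 were the highest. On the log2 scale the fold change was 3.68 (95% confidence interval 2.31 to 5.06, edgeR adjusted p = 0.000355), which is a 12.9-fold difference, and the call held in each setting tried.

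Of the receptor genes, *Tie1* (ENSMUSG00000033191, chr4:118471191-118490061, minus strand), the receptor that pairs with *Tek*, differed most. Its level ran from 29.3 CPM in embryo 6 over a median of 39.2 CPM to 108 CPM in embryo 2, against 15.2 and 9.13 CPM in the adults. The groups did not overlap, and embryo 2 was far above the other embryos, which ended at 47.8 CPM. The log2 fold change was 1.97 (95% confidence interval 0.91 to 3.04, edgeR adjusted p = 0.00461), a 3.93-fold difference just under the threshold of 4. *Tie1* was called without embryo 1 (2.06), 3 (2.10), 4 (2.08) or 6 (2.11) and without adult 1 (2.37), with the length and GC correction (2.18, edgeR adjusted p = 0.000831) and with the unstranded count (2.004, edgeR adjusted p = 0.00425), while without adult 2 its value was 1.64 with an adjusted p of 0.0766.

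*Tek* (ENSMUSG00000006386, chr4:94739289-94874976, plus strand), the receptor for angiopoietins, ran from 6.09 CPM in embryo 3 over a median of 16.0 CPM to 33.5 CPM in embryo 2, and the adults had 11.7 and 9.75 CPM. In 6 embryos it lay above both adults and in embryo 3 below them. The log2 fold change of 0.75 (95% confidence interval -0.31 to 1.82) did not pass, at an edgeR adjusted p of 0.218. With the length and GC correction it was 1.47 with an adjusted p of 0.0182.

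*Flt1* (ENSMUSG00000029648, chr5:147561604-147726011, minus strand), a VEGF receptor with weak kinase activity that also exists as a soluble decoy, showed the same arrangement of embryos around the adults. Its level ran from 6.74 CPM in embryo 3 over a median of 14.9 CPM to 29.9 CPM in embryo 1, against 11.9 and 9.53 CPM. Its log2 fold change was 0.63 (95% confidence interval -0.30 to 1.56, edgeR adjusted p = 0.238), and 1.81 with an adjusted p of 0.0115 after the length and GC correction. It was 0.39 without embryos 1 and 4, 0.24 without embryos 1, 2 and 4 and 0.38 with library size alone. With a replicate block, which sets only embryos 1 and 2 against adults 1 and 2, it was 1.19 (edgeR adjusted p = 0.0439).

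*Kdr* (ENSMUSG00000062960, chr5:75932827-75978458, minus strand), the main signalling receptor for VEGF-A, ran from 9.38 CPM in embryo 4 over a median of 13.4 CPM to 35.5 CPM in embryo 7, and the adults had 43.1 and 20.8 CPM. Embryos 1, 2 and 7 lay between the adults and the other 4 embryos below both. Its log2 fold change was -0.65 (95% confidence interval -1.77 to 0.47, edgeR adjusted p = 0.311). Its sign turned with the length and GC correction (0.30) and with a replicate block (0.10), and it was -0.05 without adult 1 and -1.09 without adult 2.

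*Plvap* (ENSMUSG00000034845, chr8:71497765-71511752, minus strand), the gene for the diaphragm protein, ran from 21.5 CPM in embryo 6 over a median of 32.2 CPM to 69.9 CPM in embryo 2, and from 38.9 to 54.4 CPM in the adults. Only embryo 2 was above both adults, embryos 1 and 5 were between them and 4 embryos were below. *Plvap* had a log2 fold change of -0.33 (95% confidence interval -1.15 to 0.50, edgeR adjusted p = 0.498). It was -0.90 with an adjusted p of 0.0272 after the length and GC correction, and 0.21 with a replicate block. It was -0.62 without embryos 1, 2 and 4, -0.55 without embryo 2, -0.19 without embryo 3 or 6, -0.08 without adult 1 and -0.56 without adult 2.

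Promoter sequences are shown for a pair of members of which each was higher in the embryo, *Tie1* and *Emcn*, for *Kdr*, which was not, and for *Cldn5*, which had the largest difference. RefSeq promoters (build GRCm38.p6) of 300 bases, from 250 before to 50 after the start, were matched for 6 of the 10 members, *Kdr*, *Flt1*, *Tek*, *Tie1*, *Emcn* and *Cldn5*. *Pecam1*, *Cdh5*, *Plvap* and *Sox17* had no entry. Capitals mark the letters GGAA on either strand (TTCC on the strand shown), the core of the motif bound by ETS factors, a family that includes regulators of endothelial genes.
Tie1: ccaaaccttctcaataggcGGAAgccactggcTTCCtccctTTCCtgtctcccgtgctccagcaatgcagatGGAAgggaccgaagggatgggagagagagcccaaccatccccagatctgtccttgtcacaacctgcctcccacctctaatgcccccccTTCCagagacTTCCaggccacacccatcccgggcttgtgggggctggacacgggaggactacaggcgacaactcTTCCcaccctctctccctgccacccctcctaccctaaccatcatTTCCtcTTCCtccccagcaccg
Emcn: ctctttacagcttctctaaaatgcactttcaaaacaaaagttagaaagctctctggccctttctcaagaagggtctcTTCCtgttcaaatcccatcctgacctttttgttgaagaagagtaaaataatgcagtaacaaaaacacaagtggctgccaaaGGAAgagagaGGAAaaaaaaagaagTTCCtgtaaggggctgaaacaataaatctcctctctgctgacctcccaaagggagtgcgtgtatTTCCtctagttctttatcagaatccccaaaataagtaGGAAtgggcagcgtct
Kdr: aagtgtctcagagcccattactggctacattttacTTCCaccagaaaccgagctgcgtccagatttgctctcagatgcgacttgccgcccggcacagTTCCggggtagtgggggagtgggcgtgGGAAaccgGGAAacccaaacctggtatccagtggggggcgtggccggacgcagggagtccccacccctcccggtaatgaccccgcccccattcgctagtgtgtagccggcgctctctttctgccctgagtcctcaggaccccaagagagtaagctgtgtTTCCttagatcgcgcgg
Cldn5: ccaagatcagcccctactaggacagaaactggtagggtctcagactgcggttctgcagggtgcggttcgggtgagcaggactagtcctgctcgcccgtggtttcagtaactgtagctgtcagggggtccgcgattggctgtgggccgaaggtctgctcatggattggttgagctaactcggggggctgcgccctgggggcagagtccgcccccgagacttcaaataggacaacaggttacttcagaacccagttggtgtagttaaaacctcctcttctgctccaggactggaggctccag
The windows are chr4:118489800-118490099 (minus strand) for *Tie1*, chr3:137340828-137341127 (plus) for *Emcn*, chr5:75978406-75978705 (minus) for *Kdr* and chr16:18776597-18776896 (plus) for *Cldn5*. *Tie1* held 9 matches to GGAA, *Emcn* 6, *Kdr* 5, *Flt1* 4, *Tek* 2 and *Cldn5* 0. The letters are common, since 95.98% of 32851 mouse promoters of this length hold them, with a median of 3 matches against 4.5 over the 6 members. The letters ACAAT on either strand, part of the motif of SOX factors, were in *Tek* and *Emcn* and in 31.0% of all promoters, and TATAAA on either strand was in *Flt1* and in 13.6%. GC content ran from 41.0% in *Emcn* to 70.7% in *Flt1* around a median of 52.7% over all promoters. CG pairs numbered 29 in *Flt1*, 19 in *Kdr*, 12 in *Cldn5*, 7 in *Tie1*, 3 in *Tek* and 2 in *Emcn*. A match is a description of the letters and not a binding site.

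Levels of different genes were compared as CPM per kb of the longest annotated transcript. In the embryos *Cldn5* led with 54.6 ± 31.2 CPM per kb (SD, n = 7), and it was the highest member per length in each embryo. *Emcn* followed with 21.04 ± 7.96, *Plvap* with 18.7 ± 8.51, *Cdh5* with 16.6 ± 7.91, *Pecam1* with 16.1 ± 10.8 and *Tie1* with 11.3 ± 6.48 CPM per kb. *Tek* (3.88 ± 1.99), *Kdr* (3.43 ± 2.08), *Flt1* (2.41 ± 1.03) and *Sox17* (1.93 ± 0.830) were lower. The intervals of mean ± SD overlapped between all neighbours in this order. Among all tested genes the members ranked by embryo level per length between 1340 for *Cldn5* and 11016 for *Sox17*.

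In the adults *Plvap* led with 23.5 ± 5.49 CPM per kb (SD, n = 2), above the other members by more than the spread. *Kdr* had 5.39 ± 2.66, *Pecam1* 5.18 ± 1.11, *Cdh5* 4.74 ± 1.81, *Emcn* 4.52 ± 0.787, *Tie1* 2.88 ± 1.02 and *Cldn5* 2.85 ± 0.975 CPM per kb, with overlapping intervals of mean ± SD between neighbours in this order. *Tek* (2.30 ± 0.297) and *Flt1* (1.55 ± 0.241) came next, and *Sox17* was lowest at 0.149 ± 0.0753 CPM per kb. Among all tested genes *Cldn5* had rank 1340 in the embryos and 10805 in the adults, and *Plvap* had 3399 and 2192. The summed level of the members was 150.0 ± 58.3 CPM per kb in the embryos (SD, n = 7), from 78.7 in embryo 3 to 261 in embryo 2, and 53.0 ± 14.5 in the adults (SD, n = 2).

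The composition of this sum differed between the groups. *Cldn5* made up 23.0% to 56.4% of the summed CPM per kb in the embryos, with the highest shares in embryos 1 and 4, and 5.60% and 5.05% in the adults. *Plvap* made up 9.03% to 16.8% in the embryos and in the adults 43.3% and 45.8%. *Kdr* went the same way as *Plvap*, with 2.28% ± 1.21 in the embryos (SD, n = 7) and 9.85% ± 2.32 in the adults (SD, n = 2). The shares of *Flt1*, 1.61% ± 0.404 (SD, n = 7) and 2.97% ± 0.357 (SD, n = 2), and *Tek*, 2.59% ± 1.04 (SD, n = 7) and 4.43% ± 0.649 (SD, n = 2), were lower in the embryos on average although the mean CPM per kb was higher there, 2.41 against 1.55 for *Flt1* and 3.88 against 2.30 for *Tek*. The shares of *Emcn*, 14.5% ± 5.34 (SD, n = 7) and 8.63% ± 0.868 (SD, n = 2), and *Sox17*, 1.33% ± 0.419 (SD, n = 7) and 0.271% ± 0.0681 (SD, n = 2), were higher in every embryo than in both adults. That of *Tie1*, 7.47% ± 1.90 (SD, n = 7) and 5.36% ± 0.461 (SD, n = 2), overlapped. The share of *Pecam1* was 10.7% ± 4.18 (SD, n = 7) and 9.84% ± 0.597 (SD, n = 2), and that of *Cdh5* was 11.4% ± 4.05 (SD, n = 7) and 8.80% ± 1.02 (SD, n = 2), differences smaller than the spread between embryos.

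**Figure D3:**
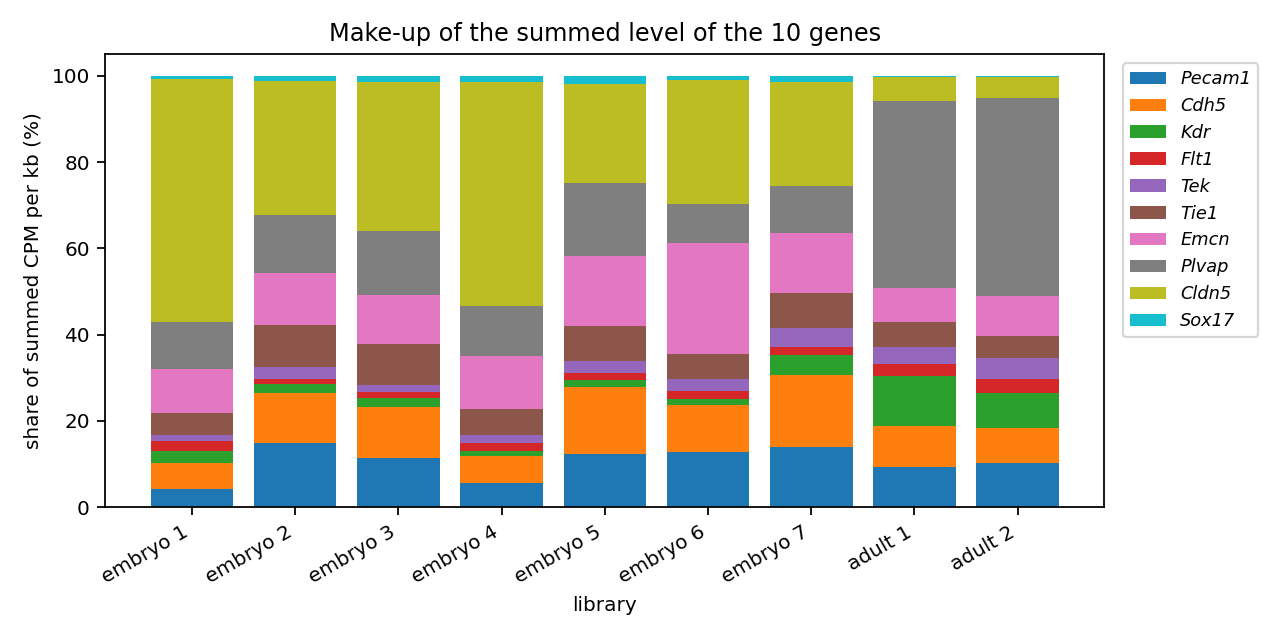
Share of each endothelial gene in the summed CPM per kb of the 10 members, in percent, for each library. *Cldn5* fills 23.0% to 56.4% in the embryos and about 5% in the adults, where *Plvap* fills 43.3% and 45.8%.

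Ratios within a library compare members without the total amount of endothelial RNA. For each of 3 ratios the difference in log2 ratio of CPM + 1 was tested with a two-sided exact permutation test over the 36 assignments of libraries to groups, for which the smallest p is 0.0278, with Benjamini-Hochberg adjustment over the 3. *Plvap* over *Cldn5*, the fenestral against the tight-junction gene, had log2 ratios from -1.85 in embryo 1 to 0.04 in embryo 5, with a mean of -0.95 ± 0.65 (SD, n = 7), and 3.20 and 3.30 in the adults. All 7 embryos lay below both adults, embryos 1 and 4 farthest. The difference was -4.20, or 18.4-fold (exact permutation p = 0.0278, adjusted 0.0417). It was -3.86 without embryos 1, 2 and 4 (exact p = 0.0667 over fewer assignments).

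*Tie1* over *Tek*, the receptor pair, had log2 ratios from 0.67 in embryo 7 over a median of 1.40 to 2.19 in embryo 3, against 0.35 and -0.09 in the adults. All 7 embryos lay above both adults. The difference was 1.24 (exact permutation p = 0.0278, adjusted 0.0417), and it was 1.21 without embryos 1 and 4 (exact p = 0.0952) and 1.02 without adult 2 (exact p = 0.250, where 0.125 is the smallest that 1 adult allows). With the length and GC correction it was 0.795 (exact p = 0.0278). *Flt1* over *Kdr*, the VEGF receptor pair, ran from -1.20 in embryo 7 over a median of 0.02 to 0.83 in embryo 4, against -1.78 and -1.05. In 6 embryos the ratio was above both adults and in embryo 7 between them. The difference of 1.25 did not pass (exact permutation p = 0.0833, adjusted 0.0833), whereas without embryo 7 it was 1.42 (exact p = 0.0357).

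The adults, which were of different sex, differed from each other in all 10 members. Adult 1 was the higher one each time, by 1.20-fold for *Tek* to 2.12-fold for *Sox17* with a median of 1.52-fold, while over all tested genes the median ratio of adult 1 over adult 2 was 1.02 and 53.2% of genes were higher in adult 1. With 1 adult of each sex, sex and animal cannot be told apart. The embryos also spread more in the members than in other genes. The median SD of log2(CPM + 1) over the 7 embryos was 0.64 for the members, 0.40 for all tested genes and 0.41 for the 10891 genes at least as abundant as *Sox17*. Embryo 2 was the highest embryo in 7 members, as in 14.5% of all tested genes, and embryo 3 was the lowest in 5, as in 13.4%.

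Across the embryos *Pecam1* and *Tek* had levels that ran most closely with those of *Cdh5*, although no member passed after adjustment over all genes. Pearson correlations with *Cdh5* on the log2(CPM + 1) scale were computed over the 7 embryos for 19370 genes, each with a two-sided exact permutation p over all orders of the embryos, of which the smallest possible is 0.000198. Of the other 9 members, 3 were positively correlated at a permutation p under 0.05, *Pecam1*, *Tek* and *Tie1*, against 5.12% of all genes, and none negatively, against 1.88%. No gene passed after Benjamini-Hochberg adjustment, with 0.574 as the smallest adjusted value, while 1355 genes had an unadjusted permutation p under 0.05 by Pearson and 1372 by Spearman.

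*Pecam1* had r = 0.934 with *Cdh5* (exact permutation p = 0.00159, adjusted 0.574, n = 7) and rho = 0.857 (exact permutation p = 0.0238). Without embryos 2 and 5, the farthest from the median of *Cdh5*, r was 0.869, so the relation was not lost without them. Of the embryos left, embryo 7 was then the highest in *Cdh5*, at 83.9 CPM against 53.0 CPM in embryo 6, the next. *Tek* had r = 0.879 (exact permutation p = 0.00516, adjusted 0.574) and rho = 0.929 (exact permutation p = 0.00675), with r = 0.851 without embryos 2 and 5. *Tie1* had r = 0.820 (exact permutation p = 0.00933, adjusted 0.645) and rho = 0.750 (exact permutation p = 0.0663), but r = 0.538 without them, so by this measure its relation rested on these embryos. Without embryos 2 and 6, the farthest in *Tie1*, its r with *Cdh5* was 0.907. *Emcn* passed by rank alone (rho = 0.786, exact permutation p = 0.0480, against r = 0.602 with exact permutation p = 0.145), and its r was 0.363 without embryos 2 and 5.

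The other members did not pass by either measure. *Sox17* had r = 0.751 with *Cdh5* (exact permutation p = 0.0643) and rho = 0.607 (exact permutation p = 0.167), with r = 0.218 without embryos 2 and 5. *Kdr* had r = 0.647 (exact permutation p = 0.115) and rho = 0.679 (exact permutation p = 0.110), with r = 0.707 without them. *Plvap* had r = 0.647 (exact permutation p = 0.115) and rho = 0.536 (exact permutation p = 0.236), with r = -0.160 without them. The lowest correlations were those of the most changed member, *Cldn5*, and of *Flt1*. *Cldn5* had r = -0.0367 (exact permutation p = 0.941) and rho = 0.0714 (exact permutation p = 0.906), and *Flt1* had r = 0.216 (exact permutation p = 0.662) and rho = 0.143 (exact permutation p = 0.783). Embryos 1 and 4, high in *Cldn5*, had *Cdh5* levels of 45.7 and 36.2 CPM, below the median. Without embryos 1 and 4 the correlation with *Cdh5* was 0.710 for *Cldn5* (exact permutation p = 0.192) and 0.916 for *Flt1* (exact permutation p = 0.0167). Leaving out 1 embryo changed the passing set, since *Kdr* passed without embryo 1 (r = 0.836, exact permutation p = 0.0458), *Sox17* without embryo 4 (r = 0.943, exact permutation p = 0.00556), and *Tie1* did not without embryo 2 (r = 0.720, exact permutation p = 0.125).

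Correlations among the members, chosen for mention after their values were seen, formed a further group. *Cldn5* and *Flt1* had r = 0.840 with each other (exact permutation p = 0.00198, adjusted 0.405 over all genes with *Cldn5* as reference, rho = 0.857 with exact permutation p = 0.0238), and r = 0.623 without embryos 1 and 2, the farthest in *Cldn5*. *Tie1* had r = 0.897 with *Plvap* (exact permutation p = 0.00437, adjusted 0.878, rho = 0.893 with exact permutation p = 0.0123), and r = 0.690 without embryos 2 and 6, the farthest in *Tie1*. With *Sox17* it had r = 0.825 (exact permutation p = 0.00635, adjusted 0.878, rho = 0.857 with exact permutation p = 0.0238), and r = 0.708 without the same embryos. Over the 45 pairs of members the median r was 0.577, 43 pairs were above 0, and the range was -0.0716 to 0.934, while 49.9% of all pairs of tested genes were above 0. The median over the member pairs was 0.39 without embryo 2 and 0.763 without embryos 1 and 4.

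**Figure D4:**
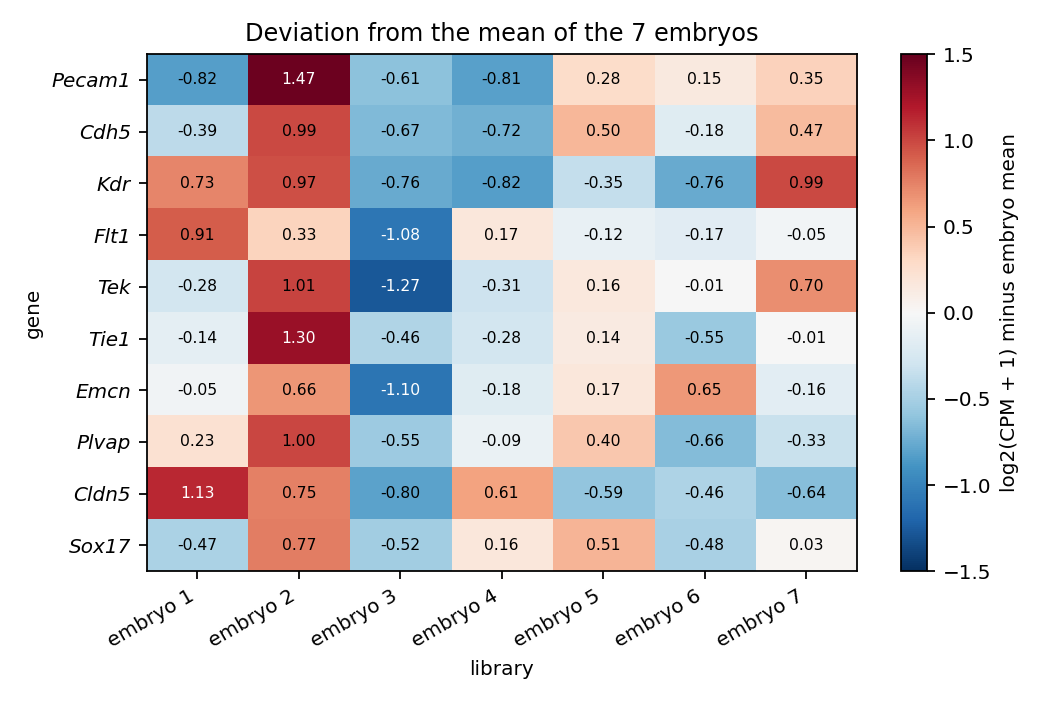
Deviation (colour and printed value) of each endothelial gene from its own mean over the 7 embryos, on the log2(CPM + 1) scale, by embryo. Embryo 2 is the highest embryo in 7 members and embryo 3 the lowest in 5, while *Cldn5* and *Flt1* are highest in embryo 1.

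The 10 genes with the highest r with *Cdh5*, among 11762 genes with a mean embryo count of at least 100, were *Elmo1* (0.983), *Col4a2* (0.976), *Col9a3* (0.974), *Man1c1* (0.972), *Sertad4* (0.970), *Smpd3* (0.970), *Vstm2b* (0.966), *Emilin1* (0.963), *Tbx3* (0.961) and *Sdk2* (0.961). Each had an exact permutation p of 0.00317 or lower, an adjusted value of 0.574, a rho of 0.893 or higher, and an r of 0.927 or higher without embryos 2 and 5. *Col4a2*, a chain of basement membrane collagen, ran from 64.4 to 243 CPM in the embryos around a median of 88.9 CPM, and from 53.0 to 81.6 CPM in the adults. *Pecam1* was the closest member by this measure, at rank 73 of 19370, and *Tek* had rank 245.

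Of 11 tested genes of VEGF and angiopoietin signalling, the pathway of the receptors *Kdr*, *Flt1*, *Tek* and *Tie1*, 9 were not called. In each direction 1 was called, against 11.3% of all tested genes higher in embryo and 14.6% higher in adult, and with the length and GC correction 2 were called higher in embryo and 0 higher in adult. The median log2 fold change was 0.02, and *Angpt4* was too low to test. At the adjusted p alone 3 were higher in embryo and 1 in adult, against 24.0% and 27.4% of all tested genes. *Pgf*, a ligand of *Flt1*, ran from 20.8 to 53.2 CPM in the embryos against 4.70 and 2.59 CPM in the adults (log2 fold change 3.42, edgeR adjusted p = 3.58e-05). *Angpt1*, a ligand of *Tek*, ran from 5.07 to 46.6 CPM against 164 and 105 CPM (log2 fold change -2.56, edgeR adjusted p = 0.00109), and it was not called with the length and GC correction (-1.41). Neither ligand overlapped between the groups, and their receptors *Flt1* and *Tek* did. Over the list 3 of 11 genes had all 7 embryos above both adults and 1 had all 7 below. The shares over all tested genes were 26.2% and 32.9%. The most abundant gene, the co-receptor *Nrp2*, had a log2 fold change of 1.49 (edgeR adjusted p = 0.0045) with all 7 embryos above both adults, and was called with the length and GC correction (2.44) and not past the test without adult 2 (1.32, edgeR adjusted p = 0.0725). *Angpt2*, also a ligand of *Tek*, had 1.70 (edgeR adjusted p = 0.00285). The list had a median r of 0.111 with *Cdh5*. In the exact permutation test at an unadjusted p under 0.05, 0 of 11 genes passed, against 5.12% of all genes positively and 1.88% negatively.

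Of 20 other pan-endothelial genes 9 were called higher in embryo, against 11.3% of all tested genes, and the median log2 fold change was 1.87. With a replicate block 14 were called, where 1796 of 19371 tested genes were. In the test against a fold of 4 there were 2, where 613 of all tested genes were. None was called higher in adult by edgeR or DESeq2, but *Adgrl4* was under the fold of 4 there, at -1.93 (edgeR adjusted p = 0.000997) with all 7 embryos below both adults, and it was called without embryo 7 (-2.10), without adult 1 (-2.01), with library size alone (-2.12) and with a replicate block (-2.07). The largest difference was in *Ecscr* (4.11, edgeR adjusted p = 1.33e-05), and the most abundant gene, *Cd34*, had 75.8 to 245 CPM in the embryos against 33.2 and 17.7 CPM in the adults (2.34, edgeR adjusted p = 0.00148, and 1.95 without adult 2). Their summed level was 375 to 1048 CPM in the embryos, highest in embryo 2, and 168 and 126 CPM in the adults, adult 1 again the higher. Their median r with *Cdh5* was 0.716 against 0.0736 over all tested genes, and 8 of 20 passed the exact permutation test at an unadjusted p under 0.05, all positively, against 5.12% of all genes.

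Of 12 arterial, venous and tip-cell genes *Gja4* (log2 fold change 4.20), *Gja5*, *Sema3g* (2.89) and *Ephb4* (2.86) were called higher in embryo, against 11.3% of all tested genes. *Esm1* (-7.03) was called higher in adult, against 14.6%, and the list had a median of 1.88. With the length and GC correction 7 of the list were called higher in embryo, where 1658 of 19371 tested genes were. Without embryos 1 and 4 there were 6, where 2249 of 19508 tested genes were. *Apln*, the apelin gene, passed the adjusted p higher in adult without reaching the fold of 4 (-1.32, edgeR adjusted p = 0.0134), with all 7 embryos below both adults, but not without adult 1 (edgeR adjusted p = 0.0704) or adult 2 (0.0755). *Gja5*, the arterial connexin 40 gene, had 13.3 to 48.7 CPM in the embryos and rested on 1 and 4 counts in the adults, in the same direction as the arterial factor *Sox17*. *Dll4* (0.52, edgeR adjusted p = 0.501) and *Efnb2* (0.65, edgeR adjusted p = 0.106), of the same list, did not pass. At the adjusted p alone 7 of the list were higher in embryo and 2 in adult, against 24.0% and 27.4% of all tested genes. *Esm1*, an endothelial proteoglycan gene, had 0 to 1.69 CPM in the embryos and 80.2 and 140 CPM in the adults, opposite to 6 of the members. *Sema3g* was not past the test without adult 1 (2.66, edgeR adjusted p = 0.0619). *Dll4*, a Notch ligand of arterial and tip cells, had the highest r with *Cdh5* in this list (0.949, exact permutation p = 0.00496, adjusted 0.574, rho = 0.821 with exact permutation p = 0.0341, and r = 0.862 without embryos 2 and 5), and the list had a median r of 0.643.

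Of 12 barrier and fenestra genes, a mixed list that includes transporter and junction genes, 10 were not called and 1 was called in each direction. The shares over all tested genes were 11.3% and 14.6%. *Cav1*, the caveolin gene, was called higher in embryo (log2 fold change 3.59, edgeR adjusted p = 2.0e-05) and the drug transporter gene *Abcb1a* higher in adult (-2.74, edgeR adjusted p = 0.0439), and the median was -0.18. The call of *Abcb1a* was lost without embryo 3 (-2.47), 4 (-2.49), 5 (-2.70) or 6 (-2.65), and without adult 1 (-2.82) or adult 2 (-2.71), and with DESeq2, the unstranded count, a replicate block or the length and GC correction (-1.85). The count called higher in embryo was 2 without embryo 1 or 3, without embryos 1 and 4, with DESeq2 and with the length and GC correction. The most abundant gene, the glucose transporter gene *Slc2a1*, had a log2 fold change of 1.26 (edgeR adjusted p = 0.00226), and the junction gene *Tjp1* had -1.50 (edgeR adjusted p = 0.000279), which was -0.15 with the length and GC correction. The summed level was 272 to 368 CPM in the embryos, and adults 1 and 2 had 344 and 297 CPM.

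The part of other cells in the members' differences was not tested. Of 12 mural genes 4 were called higher in embryo, against 11.3% of all tested genes, *Cspg4* (log2 fold change 2.50), *Acta2* (4.34), *Tagln* (2.18) and *Vtn* (4.01), with a median of 1.50. The pericyte gene *Rgs5* was higher in adult at the adjusted p alone (-0.98, edgeR adjusted p = 0.0142), with at most 39.6 CPM in an embryo against 68.9 and 39.99 CPM in the adults, but not without adult 1 (-0.55), with the length and GC correction (0.06) or with a replicate block (-0.84, edgeR adjusted p = 0.103). The sum of the mural genes was 283 to 691 CPM in the embryos, and adults 1 and 2 had 196 and 126 CPM, and *Tagln* was not called without embryo 2 (1.85), adult 2 (1.68) or embryos 1, 2 and 4 (1.69). Its call was also lost with library size alone (1.95), the length and GC correction (1.32) and the unstranded count (0.086). Of 8 mesenchyme genes 6 were called higher in embryo, with a median of 2.59, and *Col3a1* was the most abundant (2.87) and *Twist1* the most changed (4.26). Their sum was 688 to 2428 CPM against 723 and 462 CPM. The median r with *Cdh5* was 0.415 for the mural and 0.689 for the mesenchyme genes.

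Of 8 erythroid genes 7 were called higher in embryo, all but *Alas2*, against 11.3% of all tested genes. The list had a median log2 fold change of 5.02 and a median r with *Cdh5* of -0.620. All 8 were called with DESeq2, and 2 in the test against a fold of 4. The count of erythroid genes called was 2 without adult 1, 3 without adult 2, 3 with the length and GC correction and 5 without embryos 1 and 4. The embryonic globin gene *Hbb-y*, the most abundant, had 9 and 4 counts in the adults and at least 4332 CPM in every embryo. Of 4 tested platelet genes *Pf4* (4.50) and *Gp9* (2.33) were called, against the same 11.3% of all tested genes. The platelet list had a median of 2.04, sums of 26.8 to 96.5 CPM against 6.03 and 15.8 CPM, and a median r of -0.0520. *Gp1bb* had a count of 0 in every library, and *Gp9* was not past the test without adult 1 (2.19, edgeR adjusted p = 0.0866) or adult 2 (2.45, edgeR adjusted p = 0.0645), nor with the length and GC correction (0.84). Of 9 macrophage genes none was called in either direction by edgeR or DESeq2 at the fold of 4. By edgeR 11.3% of all tested genes were called higher in embryo and 14.6% higher in adult. At the edgeR adjusted p alone 3 macrophage genes were higher in embryo, against 24.0% of all tested genes. These were *C1qb* (log2 fold change 1.004, adjusted p = 0.035), *Aif1* (1.20, 0.0352) and *Cd68* (1.32, 0.0165). With the length and GC correction the signs of *C1qb* (-0.29) and *Aif1* (-0.27) turned. The median log2 fold change of the 9 macrophage genes was 0.45, and -0.25 with the length and GC correction. The most abundant gene, *C1qb*, had 28.4 to 82.0 CPM against 19.6 and 30.7 CPM. The sum of the 9 genes was 152 to 358 CPM, highest in embryo 2, against 114 and 171 CPM. Their median r with *Cdh5* was 0.278.

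Of 3 lymphatic genes *Lyve1* (log2 fold change 2.44) and *Pdpn* (2.04) were called higher in embryo, against 11.3% of all tested genes. *Prox1* (-4.48) was called higher in adult, against 14.6%. The list had a median of 2.04, a sum of 57.5 to 143 CPM against 89.6 and 111 CPM, and a median r with *Cdh5* of -0.132. *Lyve1* was not past the test without adult 1 (2.29, edgeR adjusted p = 0.0528), and *Pdpn* fell under the fold of 4 without embryo 2 (1.97), 3 (1.98) or 6 (1.96) or adult 2 (1.97), with library size alone (1.81), at least 10 counts in every library (1.97), a replicate block (1.84) and the length and GC correction (1.42). The labelled tissue showed in the pituitary epithelium genes, all 6 of which were tested. *Krt18* (2.27) alone was called higher in embryo, against the same 11.3% of all tested genes. It was not called with library size alone (1.99), a replicate block (1.65) or the length and GC correction (1.24). The median was 1.09, and the most abundant was the pituitary factor gene *Pitx1* (1.70). *Epcam* had all 7 embryos below both adults but did not pass (-0.87, edgeR adjusted p = 0.0554). With the length and GC correction (-1.50, edgeR adjusted p = 0.00524) and with a replicate block (-1.85, edgeR adjusted p = 1.30e-05) it passed the adjusted p. With DESeq2, 1 gene of this list passed the adjusted p higher in adult. The sum of the epithelium genes was lowest in embryo 2 (729.9 CPM) and highest in embryo 3 (2154 CPM), the reverse of the summed endothelial members, and it was 889.7 and 804 CPM in the adults. The median r of these genes with *Cdh5* was -0.512, and *Krt18* had -0.926 (exact permutation p = 0.000992, adjusted 0.574, rho = -0.964 with exact permutation p = 0.00278, and r = -0.951 without embryos 2 and 5).

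Of 5 neural genes, which mark the adjoining infundibulum and brain, *Nkx2-1* (4.04) and *Rax* (4.83) were called higher in embryo, against 11.3% of all tested genes. The list had a median log2 fold change of 1.13, and its most abundant gene, *Tubb3*, had 0.41. The sum was 107 to 261 CPM in 6 embryos, 438 CPM in embryo 2, and 105 and 72.6 CPM in the adults. The median r with *Cdh5* was 0.274, and *Nkx2-1* had 0.922 (exact permutation p = 0.00476, adjusted 0.574, rho = 0.857 with exact permutation p = 0.0238, and r = 0.805 without embryos 2 and 5). The part of the neural and epithelial genes in the covariation of the members was not tested.

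**Figure D5:**
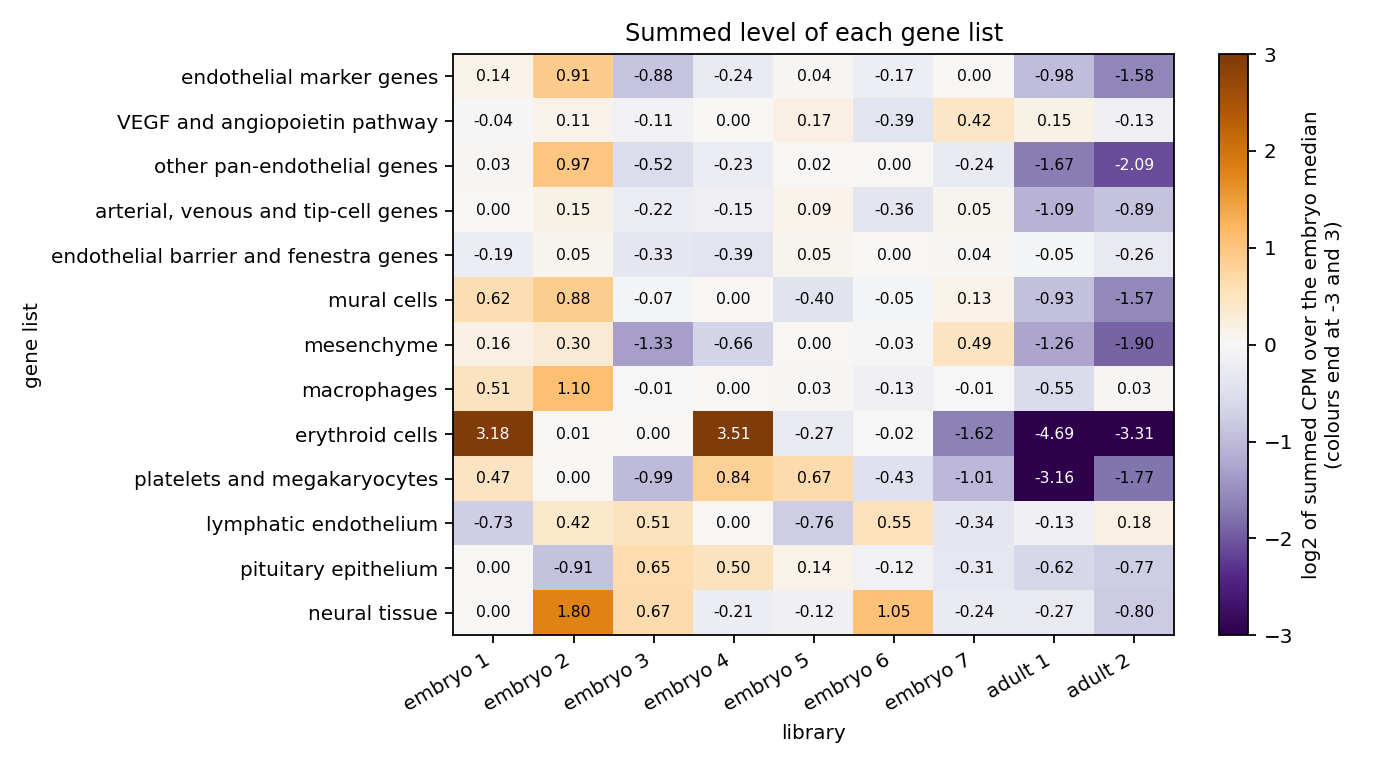
Summed CPM of each marker list in every library (colour and printed value), as log2 over the median of the 7 embryos, with colours ending at -3 and 3. Embryo 2 is the highest embryo in the endothelial marker genes (755 CPM) and in the neural genes (438 CPM), and the lowest in the pituitary epithelium genes (729.9 CPM).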

How the data were processed

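RNA was measured in 7 embryo and 2 adult libraries, grouped by the sample labels. The deposited files give read counts per gene, which the authors made with Trimmomatic 0.39 and STAR 2.7.5b on GRCm38, in count columns for both strands together and for each strand. Column 4, the strand that holds the library's reads, was used. The other strand held at most 0.542% of the counts of any member summed over the libraries and at most 9.09% in a single library (*Sox17* in adult 2, where it had 11 counts), and no member shares exons with a gene on its own strand. The 55450 identifiers were matched to Ensembl 96 (GENCODE M21).

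Of these, 19371 had a mean count of 5 or more and were kept, and library sizes were scaled by TMM. edgeR 4.0.16 in R 4.3.3 fitted embryo against adult with a two-sided quasi-likelihood test and Benjamini-Hochberg adjustment over all tested genes, and a gene was called at an adjusted p under 0.05 and a fold change above 4. CPM were on the TMM scale, with a pseudocount of 1 on the log2 scale. Correlations and ratios used exact permutation over libraries, in scipy 1.17.1, pandas 2.3.3 and numpy 2.4.6 under Python 3.11.15, and matplotlib 3.10.9 drew the plots. The lowest effective depth sets the floor of 3 counts, and the common dispersion was 0.190.

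The members and the lists were chosen with earlier results of these data known. Genes named were all members, and in each list the most abundant tested gene, the called gene with the largest change in each direction and every gene of a count of 5 or fewer, and the 10 genes with the highest r with *Cdh5*. *Adgrl4*, *Aif1*, *Cd68*, *Angpt2*, *Apln*, *Tjp1*, *Rgs5*, *Epcam* and *Efnb2*, and the fold change of *Dll4*, were named after their values were seen. The correlations of *Dll4*, *Nkx2-1* and *Krt18* were chosen for mention after their values were seen.

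Alternatives were DESeq2 1.42.0 and its size factors in edgeR, library size alone, filterByExpr, no filter, at least 10 counts in every library, the unstranded count, a test against the fold of 4 (glmTreat), a fold above 2 and no fold threshold, a replicate block, Spearman in place of Pearson, a pseudocount of 0.1, a correction for transcript length and GC content (natural splines of 4 degrees of freedom, with genes of mean count 50 or more), leaving out embryos 1 and 4, and leaving out each library. With 1 adult left, its spread was taken to be like that of the embryos. The steps were tested on simulated data. No batch is named in the labels.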

Additional observations from a re-analysis of the deposited data

Results flagged for a closer look

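In 74 sets of embryo values, the members, the named genes and the list sums, the gap between the highest or lowest embryo and the nearest other was divided by the range of the 7 embryos. For normally distributed values about 1 in 20 sets would have a gap past Dixon's 95% critical value by chance. The values here were CPM without a log, so that rate need not hold for them. A gap past the critical value was found in 9 of the 74, 8 of them through embryo 2 as the highest embryo. The sets share libraries and are not independent. Embryo 2 lay far from the other embryos in *Pecam1* (gap over range 0.677) and *Tie1* (0.766), and in the summed CPM of the other pan-endothelial genes (0.741) and of the macrophage genes (0.586). The same embryo stood far out in the arterial gene *Gja5* (0.638), *Apln* (0.575), the mural gene *Tagln* (0.620) and *Emilin1* (0.647). Embryo 1 did so in *Vtn* (0.737).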

How the results depend on the processing

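*Cldn5* and *Sox17* kept their calls under every alternative, and *Emcn* under all but the test against a fold of 4. The count of members called higher in embryo, 3 with the settings of the report, was 2 in that test, 4 with the length and GC correction and with the unstranded count, where *Tie1* joined the 3, 5 without embryos 1 and 4, 6 with a fold above 2 and 6 with no threshold on fold change, and it ran from 3 to 5 with a library left out, 5 of them without adult 1. Where 5 were called, *Cdh5* and *Tie1* joined the 3, with log2 fold changes of 2.03 and 2.11 without embryos 1 and 4. The count of members called higher in adult was 0 throughout. Leaving out embryos 1, 2 and 4 was added after seeing the data. The 3 members correlated with *Cdh5* at the permutation p became 5 with library size alone, where the genes passing among all tested went from 1355 (7.00%) to 3244 (16.7%), 4 without embryos 1 and 4 (808 genes) and 2 to 4 with an embryo left out (790 to 2271 genes), and none passed after adjustment under any alternative. With a library left out, log2 fold changes ran from 1.26 to 1.86 for *Pecam1*, 1.45 to 2.24 for *Cdh5*, 1.63 to 2.37 for *Tie1*, 2.04 to 2.40 for *Emcn*, 3.93 to 4.63 for *Cldn5*, 3.24 to 4.30 for *Sox17*, 0.47 to 0.82 for *Flt1*, 0.53 to 0.96 for *Tek*, -1.09 to -0.05 for *Kdr* and -0.56 to -0.08 for *Plvap*.

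The log2 ratio of *Plvap* over *Cldn5* (embryo minus adult) was -3.86 without embryos 1, 2 and 4 and ran from -4.36 to -4.05 with a library left out, where without an adult the exact permutation p was 0.125, the smallest that design allows. That of *Flt1* over *Kdr* ran from 0.89 to 1.61. That of *Tie1* over *Tek* was 1.21 without embryos 1 and 4, 1.13 without embryos 1, 2 and 4 (exact permutation p = 0.133), 0.795 with the length and GC correction, and ran from 1.02 to 1.46 with a library left out.

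Signs turned with the length and GC correction for *Kdr* (0.30), *C1qb* (-0.29), *Aif1* (-0.27), *Tubb3* (-0.35), *Rgs5* (0.0632), *Elmo1* (0.29) and *Sdk2* (0.99), none of them called, and for *Tubb3* with a library left out (-0.0203 to 0.97). The r of *Cldn5* with *Cdh5* turned with library size alone (0.0618), as a Spearman rho (0.0714), without embryos 1 and 4 (0.71) and with an embryo left out (-0.459 to 0.170), and that of *Flt1* ran from -0.248 to 0.544. The causes were not tested.

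With a replicate block on replicates 1 and 2, 5 members were called higher in embryo, among them *Cdh5* (2.03) and *Tie1* (2.47), and the sign turned for *Kdr* (0.10) and *Plvap* (0.21). The other embryos share no number with an adult. All values with the block therefore compare only embryos 1 and 2 with adults 1 and 2, and do not check the difference over all embryos. The numbers name different animals, and the deviations of the paired libraries had correlations of 0.0303 for replicate 1 and -0.0145 for replicate 2. The median log2 fold change of all genes was -0.20 with the block and -0.26 with library size alone, against -0.04. Total calls higher in embryo and in adult, 2182 and 2819, were 613 and 1131 in the test against a fold of 4, 1248 and 1394 with at least 10 counts in every library, 4155 and 4805 with a fold above 2 and 4650 and 5298 with no fold threshold. *Pecam1*, *Cdh5* and *Tie1* did not pass the adjusted p without adult 2, nor *Pecam1* without adult 1. Counting depth limits *Sox17* most, at 11 counts in adult 2.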
